A study of Homo sapiens with 9 samples.

Results

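The 10 genes described here encode transporters that carry amino acids across the plasma membrane: SLC3A2, SLC7A5, SLC7A6, SLC7A11, SLC7A1, SLC38A1, SLC38A2, SLC1A4, SLC1A5 and SLC6A9. They were found by symbol, 1 row each, among the 56541 genes of the count table. The list was chosen by transport role with the shBCLAF1 and shCONTROL values of these libraries already known, so the knock-down values and calls are a description of the genes chosen. The calls come from the fit over all genes, and no p-value of a chosen gene is printed for that comparison. The RIP values rest on the same shCONTROL libraries and were also known when the list was made.

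RNA was measured in MOLM-13, an established human acute myeloid leukaemia cell line, in 9 libraries. Cells with the control hairpin (shCONTROL) and cells with a hairpin against BCLAF1 (shBCLAF1) gave 3 RNA-seq libraries each. The RIP group held 3 libraries of RNA that came down with BCLAF1, a nuclear RNA-binding protein, from shCONTROL cells. All 9 samples came from cells kept for 4 days in doxycycline, labelled as 200 ng/µL, and carried the same batch label. The labels do not say whether replicates were separate cultures, how many hairpins or clones were used, or whether a mock precipitation was made. The p-values therefore measure the spread between these libraries, which may be technical.

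Amino acid transporters of the plasma membrane decide which amino acids a growing cell can take up and exchange. SLC3A2 is the heavy chain that pairs with a light chain such as SLC7A5, SLC7A6 or SLC7A11 and brings it to the cell surface. Many genes of this kind are induced by the transcription factor ATF4 when amino acids are short, and SLC7A11 is also a target of NRF2, the regulator of the oxidative stress response.

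The promoters are shown because ATF4 binds C/EBP-ATF response elements and NRF2 binds antioxidant response elements. RefSeq (GRCh38.p14) gave 15 start-site windows for 9 of the 10 genes, all but SLC7A11, with several for SLC3A2, SLC38A1, SLC1A4 and SLC1A5. Each window ran from 250 bases before to 50 bases after a start site and was searched on both strands. The letters TGATGNAA, part of the C/EBP-ATF element, stood in 5 of the 15 windows, 1 each of SLC3A2, SLC7A1, SLC38A1, SLC1A4 and SLC1A5, against 3.62% of all 35116 windows. The 30 bases around each of these 5 matches are given below on the strand of the gene, with the match in capitals. A match read on the opposite strand appears as its reverse complement, as in SLC3A2 and SLC1A4.
SLC3A2 (chr11:62881719-62881748, plus strand): gtaatgtgcaggactccTTACATCAgctcc
SLC7A1 (chr13:29595663-29595692, minus strand): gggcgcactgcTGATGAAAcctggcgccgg
SLC38A1 (chr12:46266502-46266531, minus strand): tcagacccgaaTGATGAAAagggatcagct
SLC1A4 (chr2:64989381-64989410, plus strand): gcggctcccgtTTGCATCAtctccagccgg
SLC1A5 (chr19:46784893-46784922, minus strand): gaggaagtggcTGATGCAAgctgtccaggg

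Counted from 1 at the start site, the match began at base 38 in SLC3A2 and base 8 in SLC7A1, inside the transcribed part of the window. It began 4 bases before the start site in SLC38A1 and 7 bases before it in SLC1A4, reaching it in both, and 97 bases before it in SLC1A5. Of these 5 start sites, that of SLC7A1 lay at the 5′ end of the gene's span and the other 4 lay inside the span. The core letters of the antioxidant response element, TGACNNNGC, also stood in 5 of the 15 windows, with 6 matches in all, against 13.3% of all windows. They lay in windows of SLC7A5, SLC3A2, SLC7A1, SLC7A6 and SLC1A5, and the 30 bases around the match that lay nearest to each start site read as follows.
SLC7A5 (chr16:87869490-87869519, minus strand): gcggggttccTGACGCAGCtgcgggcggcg
SLC3A2 (chr11:62881652-62881681, plus strand): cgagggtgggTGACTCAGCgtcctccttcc
SLC7A1 (chr13:29595754-29595783, minus strand): tgcccggcggTGACGCGGCcgagcgggccg
SLC7A6 (chr16:68264487-68264516, plus strand): cggcggcgggTGACGTGGCggggcggggcc
SLC1A5 (chr19:46787385-46787414, minus strand): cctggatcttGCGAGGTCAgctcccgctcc

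The matches in SLC3A2, SLC7A1, SLC7A6 and SLC1A5 lay before the start site, and that in SLC7A5 crossed it. SLC38A2 and SLC6A9 held neither set of letters in their windows. No match of one set of letters overlapped a match of the other. These matches describe the letters alone and do not show binding.

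Libraries held 25819144 to 36635268 estimated counts. Levels are given as CPM, a gene's counts relative to the library's total, scaled by TMM over all 9 libraries. The floor of 3 counts per library came to 0.0789 to 0.118 CPM. BCLAF1, the hairpin's target, had a mean of 322 CPM ± 8.41 across shCONTROL, 113 ± 12.5 after knock-down and 1079 ± 57.4 among the RIP libraries (SD, n = 3 each). All 10 markers of myeloid leukaemia cells checked were above 1 CPM in every library, and 14 of 17 markers of other cell types were at 0 in all 9. CD3D, a marker of T cells, reached 11.9 CPM. The summed level of the 10 myeloid markers was 2289.8 to 2394 CPM across shCONTROL, 4022 to 4450.1 after knock-down and 2109 to 2331 among RIP libraries. LYZ, the lysozyme gene of maturing myeloid cells, stood at 671 to 785, 2430 to 2820 and 34.3 to 60.4 CPM in the same order. LYZ alone made up most of the summed level after knock-down, so that sum does not describe the set. Of the 10 markers 3 were called lower and 3 higher after knock-down, with a median log2 fold change of -0.05. Over all genes 16.9% were called lower and 15.5% higher. These marker levels differ along with every knock-down value below, and their part in them was not tested. In these bulk samples fewer cells of a type and less RNA per cell cannot be told apart.

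The knock-down comparison asks how transcript levels differ when BCLAF1 is depleted. Of the 10 transporter genes, 9 were called lower in shBCLAF1 and 0 higher (threshold 0.05 on the p of edgeR's quasi-likelihood test, adjusted over all 16961 genes tested), where 16.9% of all genes were called lower and 15.5% higher. Of them, 6 were called lower with a log2 fold change of -1 or lower, against 2.24% of all genes that were called lower and reached it. Since these values were known when the list was made, nothing is read from these counts. SLC6A9 passed the filter on low counts through shCONTROL alone, while the other 9 genes held at least 3153 counts in every RNA-seq library. The median log2 fold change was -1.08, also with SLC6A9 at its bound, against 0.02 over all genes. Summed over the 10 genes, the level was 3411 CPM ± 112 across shCONTROL and 1559.5 ± 70.5 after knock-down (SD, n = 3 each).

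**Figure D1:**
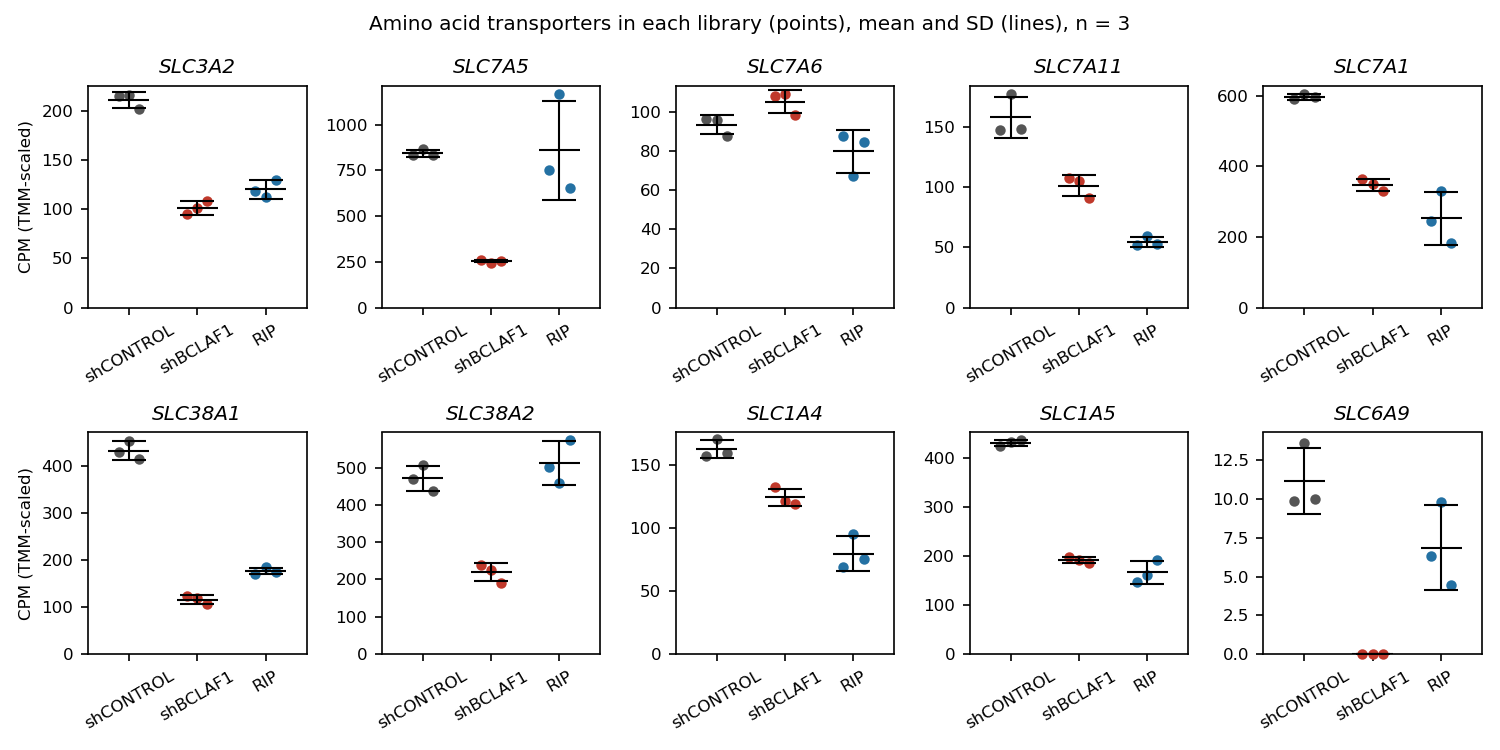
Level of each transporter gene (vertical axes, TMM-scaled CPM, each from 0) in the 3 libraries of shCONTROL, shBCLAF1 and RIP; points are libraries, long lines group means and bars 1 SD. The shBCLAF1 libraries lie under all shCONTROL libraries in every panel except SLC7A6, and SLC7A5 and SLC38A2 in the RIP overlap shCONTROL. The share of all genes without overlap was not counted, and nothing is read from how many panels lack it.

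The heavy chain SLC3A2 (ENSG00000168003, chromosome 11, 62856109 to 62888860), without which its light chains do not reach the membrane, measured 215, 216 and 201 CPM in shCONTROL replicates 1, 2 and 3. In shBCLAF1 it measured 94.6, 101 and 108 CPM. The groups did not overlap, the level in shBCLAF1 was 48.0% of that in shCONTROL, and the log2 fold change was -1.06 (SE 0.06). SLC7A5 (ENSG00000103257, chromosome 16, 87830023 to 87869507), the LAT1 light chain that takes up leucine and other large neutral amino acids, measured 833, 867 and 834 CPM in shCONTROL. In shBCLAF1 it measured 259.9, 246 and 256 CPM. Every shBCLAF1 library was under every shCONTROL library, at 30.1% of the control level (log2 fold change -1.73, SE 0.04), and 1.36% of all tested genes had a change this low or lower. Pseudogenes of SLC7A5 held few counts, at most 135 in SLC7A5P1 and 10 in SLC7A5P2, against at least 9309 in SLC7A5.

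SLC7A11 (ENSG00000151012, chromosome 4, 138164097 to 138242349), the xCT light chain that imports cystine in exchange for glutamate, measured 148, 178 and 149 CPM in shCONTROL. In shBCLAF1 it measured 107, 105 and 91.4 CPM. The groups did not overlap, and shBCLAF1 stood at 64.1% of the control (log2 fold change -0.64, SE 0.10). The antisense gene SLC7A11-AS1, which overlaps it, was at 0 in all 9 libraries.

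SLC7A6 (ENSG00000103064, chromosome 16, 68264526 to 68301819), the y+LAT2 light chain that exchanges cationic for neutral amino acids, did not follow the other 9. It measured 96.5, 95.8 and 87.7 CPM in shCONTROL and 108, 109 and 98.3 CPM in shBCLAF1. Each shBCLAF1 library lay above each shCONTROL library, by little, at 113% of the control (log2 fold change 0.18, SE 0.06), and the gene was not called. It was called higher in 4 of its 11 alternative analyses, with a log2 fold change of 0.14 to 0.23 over all 11. SLC7A6OS, whose span overlaps that of SLC7A6 by 3786 bases in RefSeq, was not called, with 23.3 CPM ± 1.19 across shCONTROL and 22.6 ± 0.395 after knock-down (SD, n = 3 each).

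SLC7A1 (ENSG00000139514, chromosome 13, 29509414 to 29595688), the CAT1 carrier of arginine and lysine, works without SLC3A2. It measured 589, 606 and 595 CPM in shCONTROL and 363, 350.1 and 329 CPM in shBCLAF1. The groups did not overlap, and shBCLAF1 stood at 58.2% of the control (log2 fold change -0.78, SE 0.05).

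Both sodium-coupled carriers of small neutral amino acids were called lower after knock-down. SLC38A1 (ENSG00000111371, chromosome 12, 46183063 to 46269043), the SNAT1 glutamine carrier, measured 429.8, 454 and 416 CPM in shCONTROL and 123, 118 and 106 CPM in shBCLAF1. Its level in shBCLAF1 was 26.7% of the control, the lowest share among the 9 genes with counts in every library (log2 fold change -1.90, SE 0.07). SLC38A2 (ENSG00000134294, chromosome 12, 46358188 to 46372773), the SNAT2 carrier that cells induce under amino acid shortage, measured 469, 506 and 438 CPM in shCONTROL. In shBCLAF1 it measured 238, 227 and 192 CPM, at 46.5% of the control with no overlap (log2 fold change -1.10, SE 0.10).

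Both ASCT exchangers of neutral amino acids were called lower. SLC1A5 (ENSG00000105281, chromosome 19, 46774883 to 46788594), the ASCT2 exchanger that brings in glutamine, measured 424, 431 and 436 CPM in shCONTROL and 197, 192 and 186 CPM in shBCLAF1. This was 44.5% of the control (log2 fold change -1.16, SE 0.04). SLC1A4 (ENSG00000115902, chromosome 2, 64988479 to 65023865), the ASCT1 exchanger of alanine, serine and cysteine, measured 157, 170.4 and 159 CPM in shCONTROL and 132, 121 and 119 CPM in shBCLAF1. Its groups did not overlap either, yet the level stayed at 76.5% of the control, the smallest of the called changes (log2 fold change -0.38, SE 0.06). SLC1A4 was not called in the fit of all 9 libraries.

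SLC6A9 (ENSG00000196517, chromosome 1, 43996483 to 44031462), the GLYT1 carrier that takes up glycine with sodium and chloride, had few counts. It held 349, 460 and 360 counts in shCONTROL replicates 1, 2 and 3, or 9.88, 13.6 and 10.01 CPM, and 0 counts in each shBCLAF1 library. Against the floor of 3 counts per library it was at least 140-fold lower in the deposited values. Such a 0 need not mean that reads were lacking, since 175 genes were at 0 in 1 or more shBCLAF1 libraries beside 100 or more counts in another of the same group. In all, 26 genes had 0 in all 3 shBCLAF1 libraries beside 100 or more in each shCONTROL library, and 10 had the opposite pattern. The RefSeq span of CCDC24 overlaps that of SLC6A9 by 46 bases, and CCDC24 held 0 to 53 counts.

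**Figure D2:**
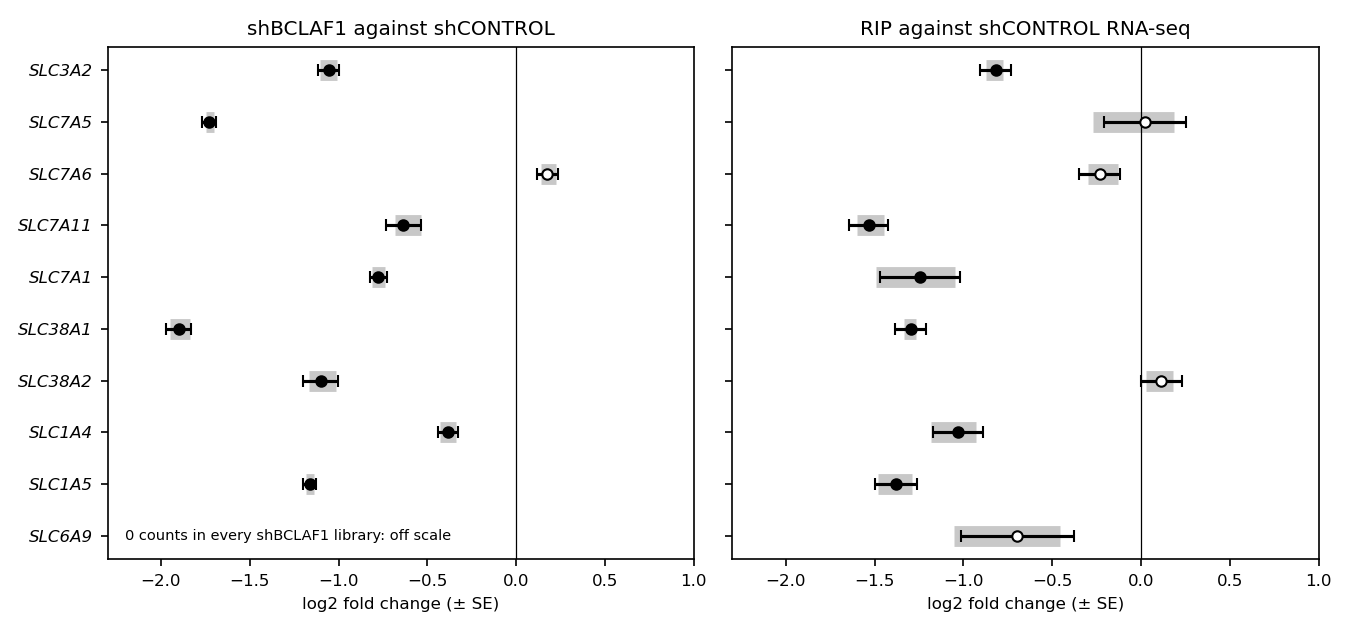
Log2 fold change (horizontal axis, ± SE as black bars) of each transporter gene after knock-down (left) and in the RIP (right); filled points were called, open points were not, and grey bands span the 6 fits that each left out 1 library. After knock-down the changes drawn run from -1.90 in SLC38A1 to 0.18 in SLC7A6, with SLC6A9 off the scale, and in the RIP from -1.53 in SLC7A11 to 0.11 in SLC38A2.

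Count ratios between genes of 1 library do not depend on how libraries are scaled, and they show how the make-up of the transporter mRNAs differed. They are not corrected for gene length, so only the same ratio is compared between groups. SLC7A5 held 4.01 ± 0.134 counts per count of SLC3A2 across shCONTROL and 2.52 ± 0.202 after knock-down (SD, n = 3 each). SLC7A11 per SLC3A2 went the other way, from 0.750 ± 0.0691 to 1.01 ± 0.147, and SLC7A6 per SLC3A2 from 0.443 ± 0.00685 to 1.04 ± 0.119 (SD, n = 3 each). Relative to SLC3A2 mRNA, SLC7A5 was thus lower and SLC7A11 and SLC7A6 were higher after knock-down, with no overlap between groups in any of these 3 ratios. The ratios restate the knock-down values of the chosen genes and do not measure pairing of the proteins. SLC38A1 per SLC38A2 was 0.921 ± 0.0260 and then 0.530 ± 0.0182, and SLC1A5 per SLC1A4 was 2.65 ± 0.110 then 1.55 ± 0.0474, again without overlap (SD, n = 3 each).

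**Figure D3:**
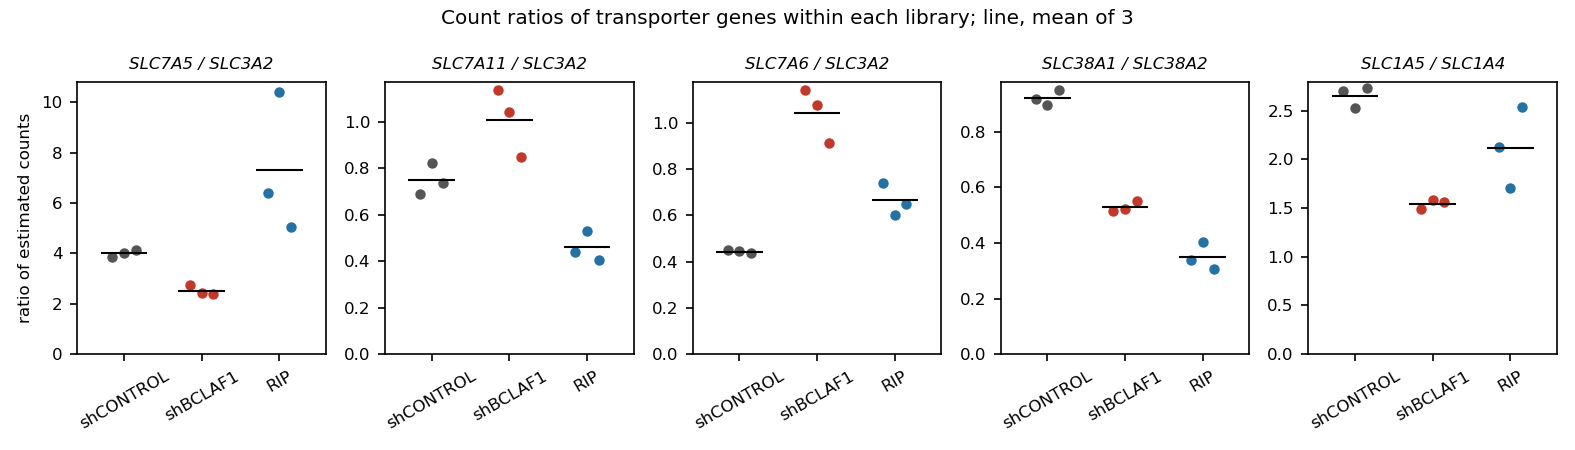
Ratio of estimated counts of 2 transporter genes (vertical axes, from 0) within each library of shCONTROL, shBCLAF1 and RIP; points are libraries and lines are means of 3. The ratio of SLC7A6 to SLC3A2 is highest in shBCLAF1 (0.911 to 1.14), and that of SLC38A1 to SLC38A2 is lowest in the RIP (0.305 to 0.403).

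Of 27 further genes for plasma membrane amino acid transporters in the table, 7 passed the filter on low counts, of which 3 were called lower and 1 higher after knock-down, with a median log2 fold change of -0.11. SLC7A2, another carrier of cationic amino acids, fell from 202 CPM ± 6.20 to 108 ± 7.63 (SD, n = 3 each), by 0.90 on the log2 scale with an SE of 0.06 and an edgeR adjusted p of 3.07e-04. SLC38A5, a carrier of glutamine, fell by 0.79 and SLC43A1, a carrier of large neutral amino acids, fell by 0.55 on the log2 scale (edgeR adjusted p 7.08e-04 and 3.20e-04), while SLC43A2, its paralogue, rose by 0.32 (edgeR adjusted p 0.00309). These genes were named because they were called, so their p-values only describe the genes picked. Of 165 tested solute carrier genes outside the 10, 16.4% were called lower and 24.2% higher, with a median of 0.02, beside 16.9% and 15.5% of all genes.

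The other lists were also drawn up with earlier results known. Over all genes 16.9% were called lower and 15.5% higher, and nothing is read from the counts of these lists. Among 28 tested genes of ATF4 and its known targets other than transporters, 27 were called lower and 0 higher, with a median log2 fold change of -1.54. ATF4 itself fell from 559 CPM ± 13.8 to 285 ± 15.5 (SD, n = 3 each), by 0.97 on the log2 scale with an SE of 0.05 and an edgeR adjusted p of 1.64e-04. Among 16 tested NRF2 targets, 1 was called lower and 7 higher (median 0.25), with GCLM, a subunit of the enzyme that starts glutathione synthesis, at 25.6 CPM ± 2.26 across shCONTROL and 50.7 ± 5.95 after knock-down (SD, n = 3 each). TXNRD1 was the 1 called lower (log2 fold change -0.53, SE 0.04). Of 13 glutathione genes 4 were called lower and 3 higher (median -0.03). The lowest of these was CHAC1, which degrades glutathione and is on the ATF4 list too, with a log2 fold change of -3.77 (SE 0.32).

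Carriers elsewhere in the cell and of other nutrients were called in both directions, as were all genes (16.9% lower and 15.5% higher). Of 8 tested lysosomal amino acid transporters 1 was called lower and 3 higher (median 0.17), with MFSD12, needed for cysteine import into lysosomes, called lower (log2 fold change -0.65) and SLC15A3, a carrier of histidine and peptides, called higher. Of 10 tested genes for glucose and monocarboxylate transport 3 were called lower and 2 higher (median -0.01), with the lactate carrier SLC16A1 at -0.50 and the glucose carrier SLC2A1 at 0.89. Of 23 tested genes that report amino acids to mTORC1 2 were called lower and 6 higher (median 0.22). They included SESN2, a leucine sensor that is an ATF4 target too, at 88.4 CPM ± 4.47 across shCONTROL and 21.3 ± 0.349 after knock-down (SD, n = 3 each). RRAGB of the same list was called higher (log2 fold change 1.14, SE 0.12).

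**Figure D4:**
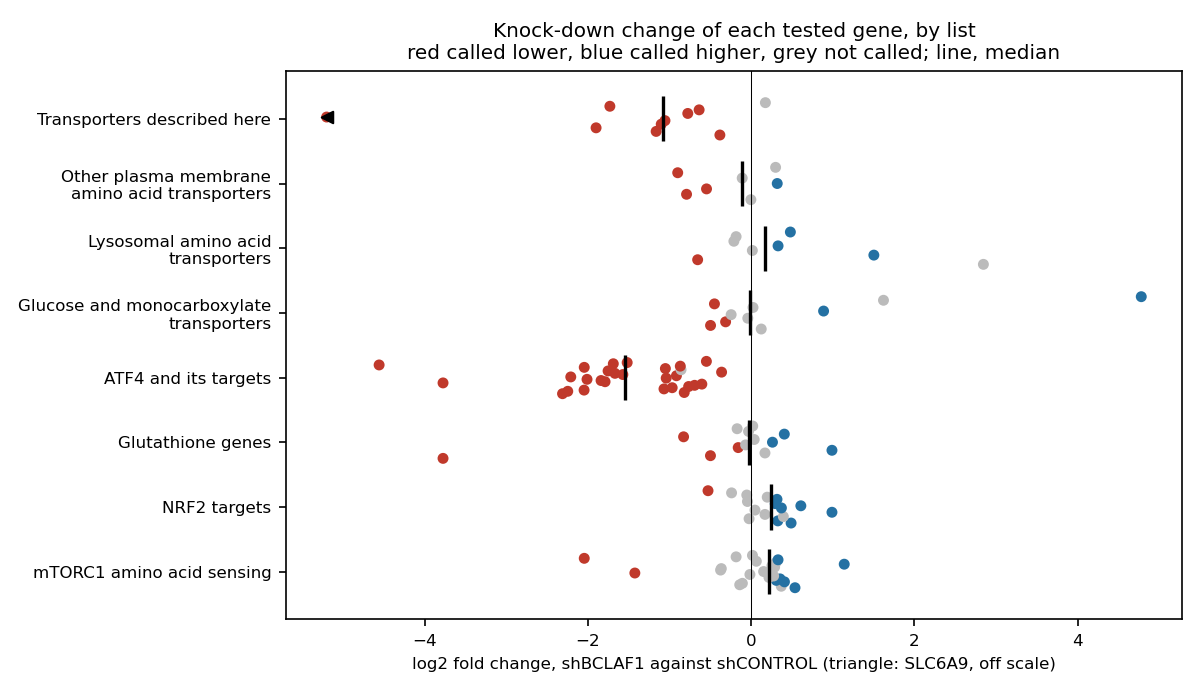
Log2 fold change of shBCLAF1 against shCONTROL (horizontal axis) for each tested gene of 8 lists; red points were called lower, blue higher, grey were not called, black lines are list medians, and the triangle marks SLC6A9, off the scale. The transporters described here (median -1.08) and ATF4 with its targets (-1.54) lie mostly left of 0, and the other lists have medians between -0.11 and 0.25.

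The RIP comparison asks which RNAs were recovered with BCLAF1 beyond their level in shCONTROL cells. Of the 10 transporter genes 6 were called lower and 0 higher in the RIP by the same test over 16727 genes, where 24.7% of all genes were called lower and 24.6% higher. Of them, 5 were called lower with a log2 fold change of -1 or lower, against 13.5% of all genes that were called lower and reached it. Since the RIP values were also known when the list was made, nothing is read from these counts. The p-values of the 10 genes below describe the genes chosen. The median was -0.92, against -0.05 over all genes. Lower values in the RIP were also frequent among other carriers: 6 of 7 other plasma membrane amino acid transporters and 46.0% of 161 other solute carrier genes were called lower. Of the former, SLC7A7, a light chain for cationic amino acids, fell by 1.11, SLC38A5 by 0.96 and SLC43A1 by 0.93 on the log2 scale (edgeR adjusted p 0.0017, 9.81e-04 and 0.00174). They too were named because they were called, so these p-values only describe the genes picked. Of the 28 tested genes of ATF4 and its targets, 16 were called lower and 7 higher in the RIP (median -0.71).

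Among the 6 called genes SLC7A11 had the lowest log2 fold change. It measured 52.1, 59.3 and 52.9 CPM in RIP replicates 1, 2 and 3. All lay under its shCONTROL range of 148 to 178 CPM (log2 fold change -1.53, SE 0.11, edgeR adjusted p 2.99e-04). SLC1A5 measured 146, 162 and 191 CPM in the RIP, also under all shCONTROL libraries (log2 fold change -1.38, SE 0.12, edgeR adjusted p 4.71e-04). SLC38A1 measured 171, 185 and 175 CPM (log2 fold change -1.30, SE 0.09, edgeR adjusted p 2.75e-04). The mean CPM of these 3 genes in the RIP was 34.6%, 38.6% and 40.8% of that in shCONTROL. These are relative levels between kinds of library, not shares of the transcripts precipitated. With both RNA-seq groups averaged as the reference, the log2 fold change was -0.79 for SLC1A5 and -0.34 for SLC38A1. That reference includes shBCLAF1, so a value against it carries part of the gene's knock-down change.

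SLC7A1 varied most among the genes called lower, with 245, 331 and 182 CPM in the RIP (log2 fold change -1.24, SE 0.23, edgeR adjusted p 0.0053). Replicate 2 was its highest, yet all 3 libraries lay under shCONTROL. SLC1A4 measured 68.7, 95.1 and 75.1 CPM (log2 fold change -1.03, SE 0.14, edgeR adjusted p 0.00192). The heavy chain SLC3A2 measured 118, 112 and 130.02 CPM (log2 fold change -0.82, SE 0.09, edgeR adjusted p 8.20e-04), again without overlap with shCONTROL. Against the averaged reference its log2 fold change was -0.28.

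The other 4 genes were not called in the RIP. Against the averaged reference SLC7A5 (log2 fold change 0.89) and SLC38A2 (0.67) were called higher and SLC7A6 (-0.31) lower. SLC6A9 was called higher there too, as its reference averages a group at 0. These calls carry part of the knock-down change and are not read as results of the RIP. SLC7A5 measured 755, 1166 and 657 CPM, on both sides of its shCONTROL range of 833 to 867, with a log2 fold change of 0.02 (SE 0.23, edgeR adjusted p 0.943) that was -0.11 with total counts in place of TMM. RIP replicate 2 decided its sign, and without that library the log2 fold change was -0.27. SLC38A2 measured 503, 459 and 575 CPM and overlapped shCONTROL (log2 fold change 0.11, SE 0.12, edgeR adjusted p 0.444), and its value with total counts was -5.78e-04. SLC7A6 measured 87.4, 67.4 and 84.4 CPM, each under shCONTROL but by little (log2 fold change -0.23, SE 0.11, edgeR adjusted p 0.141). SLC6A9 measured 6.35, 9.83 and 4.44 CPM (log2 fold change -0.70, SE 0.32, edgeR adjusted p 0.118), and it was called lower without RIP replicate 2 (log2 fold change -1.05, edgeR adjusted p 0.0208).

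SLC7A5P1, a pseudogene whose reads can be confused with those of SLC7A5, rose from 1.39 CPM ± 0.364 in shCONTROL to 4.12 ± 0.761 in the RIP (SD, n = 3 each), by 1.52 on the log2 scale with an SE of 0.29 and an edgeR adjusted p of 0.00564. SLC7A6OS measured 25.4, 51.3 and 30.4 CPM in the RIP, highest in replicate 2, the library in which SLC7A6 was lowest. ATF4 mRNA was higher in the RIP than in shCONTROL, at 961 CPM ± 154 (SD, n = 3), by 0.78 on the log2 scale with an SE of 0.14 and an edgeR adjusted p of 0.00455. BCLAF1 mRNA was higher too, by 1.74 with an SE of 0.10 and an edgeR adjusted p of 2.19e-04.

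Differences between members in their relative level in the RIP were tested on count ratios, 7 in all. The exact two-sided permutation test used cannot go below 0.1 with 3 libraries against 3. SLC38A1 per SLC38A2 was 0.349 ± 0.0498 in the RIP against 0.921 ± 0.0260 in shCONTROL (SD, n = 3 each; difference -1.41 on the log2 scale, exact p 0.1, adjusted p 0.14). SLC7A5 per SLC3A2 was 7.29 ± 2.79 in the RIP, above all shCONTROL libraries, and SLC7A11 per SLC3A2 was 0.460 ± 0.0637, under all of them (SD, n = 3 each; exact p 0.1 and adjusted p 0.14 for both). Since 0.1 is the lowest p this design can give, these ratios could not pass a threshold of 0.05 and are read as values alone. SLC1A5 per SLC1A4 overlapped between the groups (2.12 ± 0.419 against 2.65 ± 0.110, SD, n = 3 each; exact p 0.2, adjusted p 0.233). SLC7A1 per SLC7A5 differed by -1.26 on the log2 scale (exact p 0.1, adjusted p 0.14), which is likewise read as a value alone. SLC7A6 differed by 0.58 per SLC3A2 (exact p 0.1, adjusted p 0.14) and by -0.215 per SLC7A5 (exact p 0.9, adjusted p 0.9).

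Across the 3 groups the order of levels fell into a few patterns, read from the libraries without a test. The share of all genes without overlap between groups was not counted, so a lack of overlap describes these genes alone. RIP and shBCLAF1 libraries, which differ in kind, were not compared by a fit. Their order rests on TMM factors of 0.896 to 0.988 in the RIP and 1.04 to 1.07 in shBCLAF1. It was not checked under another scaling. SLC3A2, SLC38A1 and SLC6A9 were highest in shCONTROL, then the RIP, then shBCLAF1, with no overlap between neighbours in TMM-scaled CPM. For SLC6A9 the lowest shCONTROL library (9.88 CPM) lay just above the highest RIP library (9.83 CPM), and the gene was not called in the RIP. SLC7A11 and SLC1A4 were highest in shCONTROL, then shBCLAF1, then the RIP, also without overlap. SLC7A1 and SLC1A5 were highest in shCONTROL, while their shBCLAF1 and RIP libraries overlapped. SLC7A5 and SLC38A2 had overlapping shCONTROL and RIP libraries, both above shBCLAF1, and SLC7A6 ran from shBCLAF1 through shCONTROL to the RIP. Both contrasts share the shCONTROL libraries, so the knock-down and RIP values of a gene are not independent of each other.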

How the data were processed

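The members and gene lists were chosen with earlier results of these data known. Gene-level estimated counts, deposited by the authors in 1 table, were whole numbers without normalization. STAR 2.7.11b, StringTie 2.2.3 and the build hg38 are named in the submitters' processing notes, without role or order; the annotation and the counting step, including its use of strand, are not given in the sources used here. Values were used as deposited. An entry naming no gene held 2.18% to 3.75% of the counts in 8 libraries, had no value in RIP replicate 1, and was left out. The floor of 3 counts covers counting error only.

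shBCLAF1 and RIP were each compared with shCONTROL on their own 6 libraries with edgeR 4.0.16 in R 4.3.3: default filter on low counts, TMM, quasi-likelihood F-test and no covariate beside the group, prior count 2, Benjamini-Hochberg adjustment over all genes, threshold 0.05. The SE of a log2 fold change was derived from the coefficient and its F statistic. CPM were scaled by TMM factors of all 9 libraries together. Named genes were the 10 members, BCLAF1, ATF4, overlapping or near-identical loci, up to 4 per direction of the other plasma membrane transporters and at most 2 of each other list, 1 per direction, taken by size of change among called genes with a mean of at least 50 counts and no overlap between groups. The fit was tested on simulated data. Alternatives were DESeq2 1.42.0, total counts, no filter, 1 fit of all libraries, the replicate number as a block, the mean of both RNA-seq groups as reference of the RIP, and each library left out. Replicate libraries differed by more than counting noise (chi-square per degree of freedom 17.2 to 159). The values of some markers of other cell types are not reported here.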

Additional observations from a re-analysis of the deposited data

How the results depend on the processing

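Of 230 values of members under the alternatives, 215 kept their direction and their side of the threshold, 9 became called, 1 was no longer called and 5 changed sign. After knock-down no member changed sign in any of the 11 alternatives. The fit of all 9 libraries called fewer genes, 1318 lower and 1129 higher, and did not call SLC1A4 (log2 fold change -0.39). SLC7A6 was called higher, as the 1 member called so, with total counts (0.23), DESeq2 (0.17), the replicate block (0.17) and without shBCLAF1 replicate 3 (0.22), so the count of members called higher ran from 0 to 1 with a library left out. In the RIP, SLC7A5 changed sign with total counts (-0.11), the replicate block (-0.026) and without RIP replicate 2 (-0.27), which was its lowest value with a library left out, the highest being 0.19. SLC38A2 changed sign with total counts (-5.78e-04). That setting moved the median of all genes from -0.05 to -0.16. With shCONTROL and shBCLAF1 averaged as reference, 3 members were called higher in the RIP, SLC7A5 (0.89), SLC38A2 (0.67) and SLC6A9, whose fitted 3.08 averages a group at 0 and is no fold. In that setting SLC38A1 went from -1.30 to -0.34, SLC3A2 from -0.82 to -0.28 and SLC1A5 from -1.38 to -0.79, all still called lower, and SLC7A6 became called lower (-0.31, edgeR adjusted p 0.02). Leaving out a library moved SLC6A9 in the RIP from -1.05 to -0.46. The averaged reference includes shBCLAF1, so each value in that setting carries part of the gene's knock-down change. The cause of the other changes was not tested.

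The labels describe no pairing, so replicate numbers were not taken to pair libraries in the main fit. Deviations of same-numbered libraries correlated weakly (0.0212, 0.0772 and 0.0235 for the knock-down and -0.0254, 0.0146 and 0.0132 for the RIP). After knock-down each library still correlated best with its own number. The replicate block gave 2538 lower and 2271 higher genes after knock-down and 3262 and 3244 in the RIP, and called SLC6A9 lower in the RIP (edgeR adjusted p 0.0497).

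The 0 of SLC6A9 in shBCLAF1 is a deposited value, and its bound covers counting error only. With 3 libraries a group, exact tests cannot reach a p under 0.1.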
